A study of Mus musculus with 3 samples.

Results

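The genes followed here were 10 that drive or time the meiotic divisions: the cyclins Ccna1, Ccnb1 and Ccnb2, the kinases Cdk1, Plk1 and Aurkc, the phosphatase Cdc25c, the anaphase activator Cdc20, the securin Pttg1 and the chaperone Hspa2. They were chosen by symbol, with earlier results of these data known, and all 10 were found among the 31053 genes of the count tables. Testicular cells of C57BL/6 mice were profiled with droplet 3' single-cell RNA sequencing, in which every captured molecule carries a unique molecular identifier (UMI). WT mice were wild type. KO mice lacked GRTH (Ddx25), a testis RNA helicase, in every cell. KI mice carried a human GRTH gene with an arginine-to-histidine change, which leaves the helicase without its phosphorylated form. The labels give an age of 8 weeks and 1 mouse for each library, whereas the methods of the study give 8 to 16 weeks and testes pooled from 2 mice. With 1 library per genotype there was no replicate, so nothing below was tested, and every interval is a 95% interval of counting error only.

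Entry into the meiotic divisions is driven by Cdk1 bound to a cyclin. Cdc25 phosphatases activate the kinase by removing inhibitory phosphates, Plk1 and the Aurora kinases then act on spindle and chromosomes, and Cdc20 turns on the anaphase-promoting complex, an E3 ligase that marks B-type cyclins and securin for destruction so that the chromosomes can part. Male germ cells use testis-biased versions of this machinery, such as Ccna1, Aurkc and Hspa2, and round spermatids, the haploid products, do not divide again.

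The promoters of several of these genes share known cell-cycle elements, and windows from 100 bases before to 20 bases after the RefSeq start (GRCm38.p6) are shown for 5 of them. Capitals mark the cell-cycle homology region (CHR, TTTGAA or TTCGAA, searched on both strands), which the MuvB complex binds, and the CCAAT box (CCAAT, both strands), which NF-Y binds. Cdc20, Cdk1, Ccna1 and Pttg1 are shown because their levels in round spermatids differed most between the mutants and WT, and Ccnb2 because it carries the same elements and differed least in KO.
Cdc20, chr4:118437324-118437443, minus strand: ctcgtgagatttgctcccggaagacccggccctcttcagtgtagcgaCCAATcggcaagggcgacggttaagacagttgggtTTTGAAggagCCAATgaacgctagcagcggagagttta
Cdk1, chr10:69352893-69353012, minus strand: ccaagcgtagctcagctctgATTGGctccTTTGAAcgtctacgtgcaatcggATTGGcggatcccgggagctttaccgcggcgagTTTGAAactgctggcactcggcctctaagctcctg
Ccna1, chr3:55055036-55055155, minus strand: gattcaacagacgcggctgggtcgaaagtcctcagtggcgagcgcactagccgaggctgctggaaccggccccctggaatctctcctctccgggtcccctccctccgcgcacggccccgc
Pttg1, chr11:43425962-43426081, minus strand: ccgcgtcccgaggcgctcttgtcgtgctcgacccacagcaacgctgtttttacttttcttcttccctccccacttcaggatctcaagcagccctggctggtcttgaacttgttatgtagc
Ccnb2, chr9:70421535-70421654, minus strand: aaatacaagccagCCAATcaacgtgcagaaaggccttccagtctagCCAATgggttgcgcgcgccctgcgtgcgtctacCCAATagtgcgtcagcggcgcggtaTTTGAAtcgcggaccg
A promoter was found in the RefSeq table for 9 of the 10 genes. Within 300 bases, from 250 before to 50 after the start, 4 of these 9 held a CHR (Ccnb2, Cdk1, Plk1 and Cdc20), against 19.2% of all 32851 promoters. At least 1 CCAAT box was held by 8 of 9, against 37.4% of all promoters, and at least 2 by Ccnb1, Ccnb2, Cdk1 and Cdc20, against 11.7%. Ccnb2, Cdk1 and Cdc20 held both a CHR and at least 2 CCAAT boxes, a pairing found in 2.31% of promoters. Pttg1 held neither element, and the single CCAAT box of Ccna1 lay just upstream of the window shown, so both windows carry no capitals. By GENCODE positions both genes begin farther upstream, at 43426251 for Pttg1 and 55055501 for Ccna1. The 300 bases searched lie inside these genes, so sequence before those starts was not searched. These matches describe the letters only, and genes with and without them were among those that were higher in the mutants.

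The cells were called from the deposited barcodes, which left 5856 WT, 4068 KO and 1569 KI cells, with total UMIs of 73150373 to 91388296 per library and median UMIs per kept cell of 3969.5 to 11754. The clusters were built without the 10 genes or their pathway and were named by marker genes. Clusters 6 and 11 were spermatocyte-like (SP-like), clusters 2 and 1 round spermatid-like (RS-like) and cluster 7 was elongating spermatid-like (ES-like). Cluster 8, between cluster 11 and cluster 2 in pseudotime, scored highest for spermatocyte markers but under the minimum set for a name, and stayed unnamed. Kept cells of WT and KO shared 16 barcodes, those of WT and KI 36 and those of KO and KI 8, and without them the log2 ratios of the 10 genes in RS-like cells had medians of 0.48 in KO and 0.48 in KI. Ddx25 itself, at 151 counts per 1e6 UMIs (CPM) in RS-like cells of WT, was at 0 in KO and at 140 CPM in KI.

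All of the 10 genes but Hspa2 rose from cluster 6 to cluster 11 in all 3 libraries, and all but Cdc25c were lower in cluster 2 than in cluster 11. Levels are CPM of the UMIs summed over the cells of a cluster in a library, so that each cluster of each library has the same total. Ccna1 (GRCm38 chr3:55045469-55055501), the germ-line A-type cyclin without which spermatocytes stop before the first division, stood in WT at 85.8 CPM in cluster 6, 345 CPM in cluster 11, 268 CPM in cluster 8, 98.2 CPM in cluster 2 and 12.2 CPM in cluster 7. Ccnb1 (chr13:100778650-100786570), the B-type cyclin required for division in most cells, rose in WT from 17.1 CPM in cluster 6 to 167 CPM in cluster 11 and stood at 64.9 CPM in cluster 2. Ccnb2 (chr9:70407692-70421547), a second B-type cyclin, was highest in cluster 8, at 321 CPM in WT, 329 CPM in KO and 325.5 CPM in KI. Before cluster 6, in early SP-like cluster 12, Ccna1 was low in every library, at 18.8, 36.5 and 9.43 CPM. Of the 3 cyclins, Ccnb2 kept the greatest share of its cluster 11 level in cluster 2, with 73.2% in WT, 87.0% in KO and 83.5% in KI. Ccna1 kept 28.5%, 53.2% and 45.3%, and Ccnb1 38.9%, 49.0% and 33.3%.

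**Figure D1:**
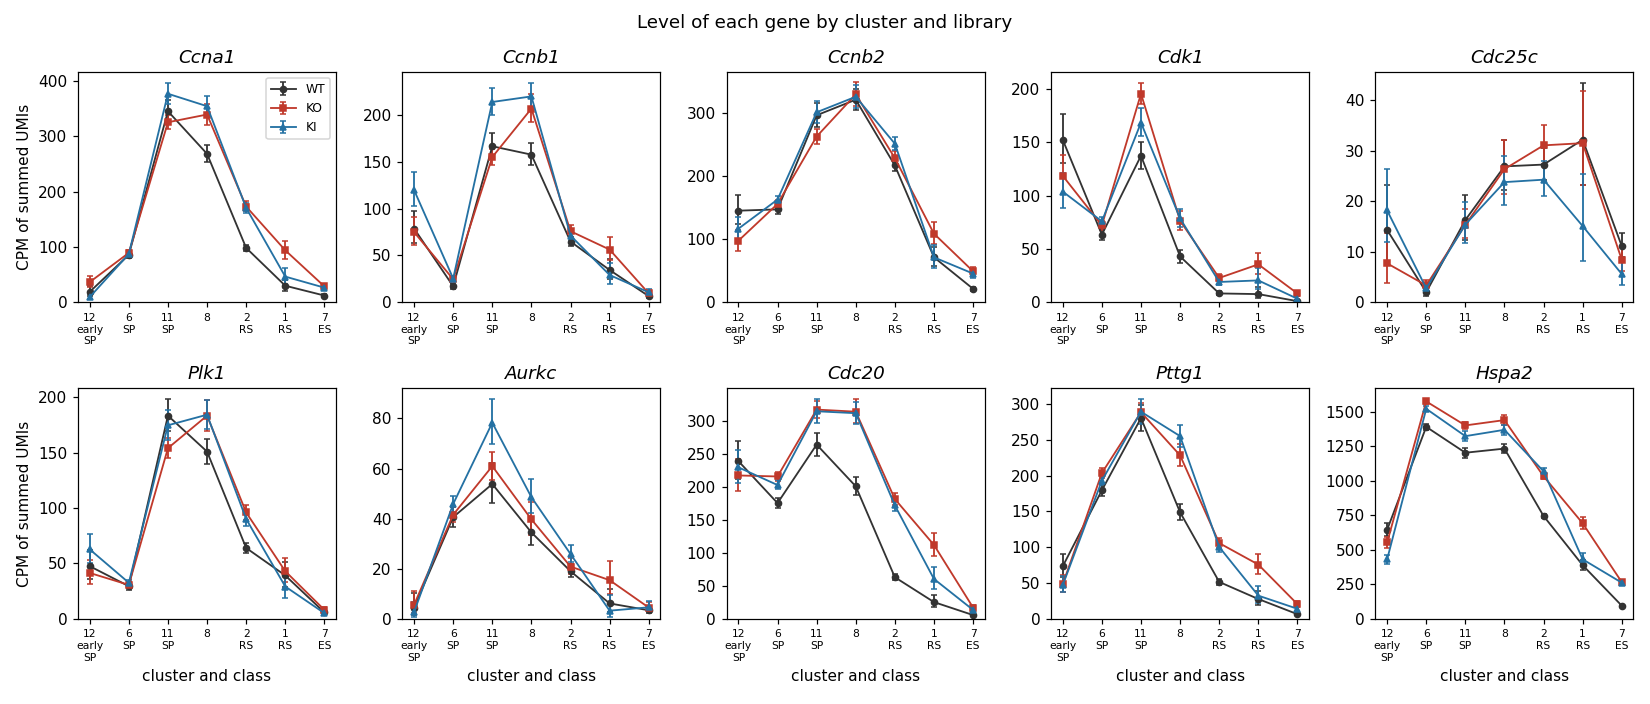
Level of each of the 10 genes (vertical axis, CPM of summed UMIs) in 7 clusters ordered by pseudotime (horizontal axis) in WT, KO and KI; bars are 95% Poisson intervals. No gene differs from WT by 1.5-fold in cluster 11, and in cluster 2 the level of Cdc20 is 63.0 CPM in WT, 182 CPM in KO and 172 CPM in KI.

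The kinases did not fall alike. Cdk1 (chr10:69335146-69352938), the catalytic partner of these cyclins, was high in early SP-like cluster 12 (152, 118.5 and 103.7 CPM), dipped in cluster 6 and stood in cluster 11 at 137 CPM in WT, 195.5 CPM in KO and 168 CPM in KI, and lost most of this level by cluster 2, where in that order 6.04%, 11.7% and 11.3% of it remained. Plk1 (chr7:122159439-122169873), the Polo kinase of spindle assembly, kept 34.9% in WT, 62.3% in KO and 51.6% in KI. Aurkc (chr7:6995300-7003091), the Aurora kinase of meiotic cells, kept 35.3%, 34.2% and 33.0%. The share kept by Aurkc was thus nearly equal in the libraries, while that kept by Cdk1 and Plk1 was higher in both mutants than in WT.

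Cdc25c (chr18:34732993-34751533), a phosphatase that activates Cdk1, ran later than the rest. It was at 2.00 CPM in cluster 6 of WT, 16.3 CPM in cluster 11 and 27.3 CPM in cluster 2, and cluster 2 held 167% of the cluster 11 level in WT, 203% in KO and 158% in KI. It was thus the only member whose level in cluster 2 exceeded that in cluster 11, and this held in all 3 libraries.

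The genes of anaphase kept more of their cluster 11 level in both mutants than in WT, as did Ccna1, Ccnb2, Cdk1 and Plk1. Cdc20 (chr4:118432901-118437352), the activator of the anaphase-promoting complex, stood in cluster 11 at 264 CPM in WT, 317 CPM in KO and 315 CPM in KI. Cluster 2 kept 23.9% of this in WT, 57.2% in KO and 54.6% in KI. Pttg1 (chr11:43420250-43426251), the securin that holds separase in check until anaphase, stood in cluster 11 at 280 CPM in WT and 289 CPM in both KO and KI. Cluster 2 kept 18.4% of it in WT, 36.6% in KO and 34.7% in KI. Hspa2 (chr12:76404176-76406938), the testis HSP70 chaperone needed for Cdk1 to assemble with its cyclin in spermatocytes, stood in cluster 6 at 1392 CPM in WT, 1577 CPM in KO and 1523 CPM in KI, above its level in cluster 11, and kept 61.9%, 73.7% and 80.7% of its cluster 11 level in cluster 2. Over the 10 genes the median share of the cluster 11 level kept in cluster 2 came to 35.1% for WT, 55.2% for KO and 48.4% for KI, and over the 6926 genes with a mean of at least 10 CPM in cluster 11 it was 55.2%, 60.8% and 62.3%. The annotation places genes of the opposite strand over Ccna1, Cdc25c, Plk1 and Cdc20, none shares a same-strand exon with another gene, and pseudogene copies of Ccnb1 and Ccnb2 exist, so reads shared with those copies leave their levels uncertain.

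In SP-like cells no member differed from WT by 1.5-fold, but some differed beyond counting error. Ratios against WT are log2 with 1 CPM added, and 9 of the 10 genes passed the minimum mean of 10 CPM (Cdc25c did not). None of the 9 was at least 1.5-fold higher in KO, where 0.493% of the 7706 genes counted were, or in KI, where 0.753% were. None was at least 1.5-fold lower, against 1.34% and 1.88% of all genes. The largest ratio was that of Cdk1 in KO, 0.43 (interval 0.33 to 0.53), from 82.3 CPM in WT and 111 CPM in KO, and in KI it was 0.17 (0.068 to 0.28). Cdc20 was at 198 CPM in WT, 248 CPM in KO and 224 CPM in KI, with ratios of 0.32 (0.26 to 0.39) and 0.17 (0.10 to 0.24). The ratios of Ccna1 were 0.10 in KO and -0.11 in KI, but no direction is given, since they were 0.056 and 0.024 in cluster 6 and -0.086 and 0.13 in cluster 11, and cluster 11 gave 3437447 of the 13441022 UMIs of WT, 7561156 of the 24023691 UMIs of KO and 3831696 of the 20754339 UMIs of KI. Their median, Cdc25c included, was 0.17 for KO and 0.078 for KI, beside -0.039 and 0.0057 over all genes counted. In cluster 11 alone, none of the 10 passed 1.5-fold in either direction in KO, where 4.07% of 6926 genes were higher and 3.97% lower, or in KI, where 2.95% were higher and 3.54% lower. Cdc20 there was above WT beyond counting error, at 0.26 (0.15 to 0.37) in KO and 0.25 (0.13 to 0.38) in KI. Cdk1 in KO was at 0.51 (0.36 to 0.66) and Aurkc in KI at 0.53 (0.27 to 0.80). Plk1 and Ccnb2 in KO were below WT, at -0.25 and -0.17. In cluster 6, Ccnb1 was at 0.50 (0.25 to 0.76) in KO and 0.54 (0.29 to 0.80) in KI.

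Unnamed cells with spermatocyte markers also parted for some of these genes. In cluster 9, shallow cells (median UMIs 1792.5 to 4541) placed at or before cluster 11 in pseudotime, Cdc20 was at 185 CPM in WT, 314 CPM in KO and 318 CPM in KI, and Cdk1 at 69.0, 139.9 and 149 CPM. In cluster 14, with 22 to 58 cells per library, Cdc20 was at 152, 263 and 256 CPM, but Cdk1 was at 134, 115 and 153 CPM and Pttg1 at 169.97, 172 and 153 CPM. These clusters held unlike mixtures by library: the 11 ES markers summed in cluster 9 to 25758 CPM in WT, 2397 CPM in KO and 1115 CPM in KI and in cluster 14 to 23547, 1437 and 888 CPM, and the median pseudotime of cluster 9 was 0.656, 0.619 and 0.624. Their part in the levels was not tested. In cluster 8, between SP-like and RS-like, Cdc20 was at 201 CPM in WT, 314 CPM in KO and 312 CPM in KI, Pttg1 at 149, 228 and 255 CPM, and Cdk1 at 42.9, 76.4 and 78.6 CPM. These 3 of the 10 genes were at least 1.5-fold higher in each mutant, against 4.59% of 7981 genes in KO, 4.91% in KI and 2.49% in both. None was lower, where 4.2% of genes were in KO and 5.45% in KI. In the same cells the 11 ES markers summed to 2828 CPM in WT, 979 CPM in KO and 537 CPM in KI, with none above WT, and the 3 red blood cell markers to 0, 227 and 0 CPM. Their part in these levels was not tested. Ccnb2 differed by a log2 ratio of 0.037 in KO and 0.021 in KI, with intervals of -0.074 to 0.15 and -0.087 to 0.13. Ccna1 and Ccnb1 stood between, at 0.34 and 0.39 in KO and 0.40 and 0.48 in KI. In cluster 4, unnamed, shallow and also between cluster 11 and cluster 2, 5 of the 10 genes were at least 1.5-fold higher in KO and 7 in KI, where 10.3% and 14.5% of 9523 genes were, and none was lower, against 11.4% and 14.4%. Its ES markers summed to 8639, 4094 and 1490 CPM and its SP markers to 8213, 10941 and 9302 CPM. Its median UMIs were 2194, 2181.5 and 5860 and its median pseudotime 0.728, 0.728 and 0.747. The part of these differences in the levels of cluster 4 was not tested.

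In RS-like cells, Cdc20, Cdk1, Pttg1 and Ccna1 were higher in both mutants, and the other 6 differed by less than 1.5-fold. Cdc20 was at 59.1 CPM in WT, 171 CPM in KO and 161 CPM in KI, a log2 ratio of 1.52 (1.39 to 1.64) in KO and 1.43 (1.30 to 1.56) in KI. Cdk1 was at 8.22, 24.8 and 19.2 CPM, a ratio of 1.48 (1.16 to 1.82) in KO and 1.13 (0.79 to 1.48) in KI. It passed the minimum mean only through the mutants, so its place in the count followed in part from that filter. Pttg1 was at 49.0, 101 and 93.4 CPM, with ratios of 1.03 (0.88 to 1.18) and 0.92 (0.77 to 1.07). Ccna1 was at 91.1, 161 and 158 CPM, with ratios of 0.81 (0.70 to 0.92) and 0.79 (0.67 to 0.90). For each of these 4 genes both mutants lay above WT with no overlap of the counting intervals of their levels.

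The calls of Cdc20 held in all 14 alternatives in both mutants. Ccna1 in KO lost its call with clusters 4 and 8 counted as RS-like (0.57), Pttg1 in KI with each cell scaled to its own total (0.57), and Cdk1 in both at resolution 0.8, where it fell under the minimum mean. Calls were gained by Plk1 (0.85) and Hspa2 (0.64) in KI at resolution 0.8, and by Aurkc in KO (0.60) with each cell scaled to its own total. With the main settings, 4 of the 10 genes were at least 1.5-fold higher in KO, where 13.4% of the 8319 genes counted were, and 4 of 10 in KI, where 16% were. The same 4 were higher in both, which 10.5% of all genes were. None was at least 1.5-fold lower, against 8.13% in KO, 10.8% in KI and 6.84% in both. The study had already reported Cdc20 and Ccna1 as up-regulated in round spermatids of both mutants from these libraries. It reported the same from quantitative RT-PCR of round spermatids that were isolated from several mice of each genotype. The 10 genes were chosen with earlier results known, so the count of higher genes followed in part from that choice. KO and KI were compared with the same WT library, so that any peculiarity of that library enters both. The median mitochondrial share of UMIs per RS-like cell was 0.115% in the WT library, 0.417% in that of KO and 0.22% in that of KI. In cluster 2 it was 0.157%, 0.394% and 0.397%, and in SP-like cells, where the genes differed from WT by less than 1.5-fold, 1.77%, 1.88% and 2%. Its part in the levels was not tested.

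The remaining members were nearer to WT. Hspa2 was at 709 CPM in WT, 981 CPM in KO and 1005 CPM in KI, with ratios of 0.47 and 0.50. Plk1 was at 61.3, 87.8 and 83.9 CPM, with ratios of 0.51 and 0.45. Both lay above WT beyond counting error but under 1.5-fold, except in KI at resolution 0.8. Ccnb2 was at 202, 209.9 and 233 CPM, Ccnb1 at 61.7, 72.9 and 67.0 CPM and Aurkc at 17.6, 20 and 23.6 CPM. Cdc25c was at 27.8, 31.2 and 23.4 CPM. In KI its ratio was -0.24 (-0.48 to -0.00082), and it was below 0 in all 14 alternatives. For Ccnb2, Cdc25c and Aurkc in KO and for Ccnb1 in KI the sign turned with size factors from the trimmed mean of M-values (TMM), to -0.12, -0.017, -0.0013 and -0.038, so no direction is given for them.

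The 10 genes had a median ratio of 0.49 in KO and 0.47 in KI, beside 0.14 and 0.15 over all 8319 genes. TMM moved the median of all genes to -0.040 in KO and -0.0021 in KI and that of the 10 to 0.31 and 0.32, and the same 4 genes stayed at least 1.5-fold higher in both mutants, which then held for 5.77% of all genes, while 10.9% were lower in both.

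**Figure D2:**
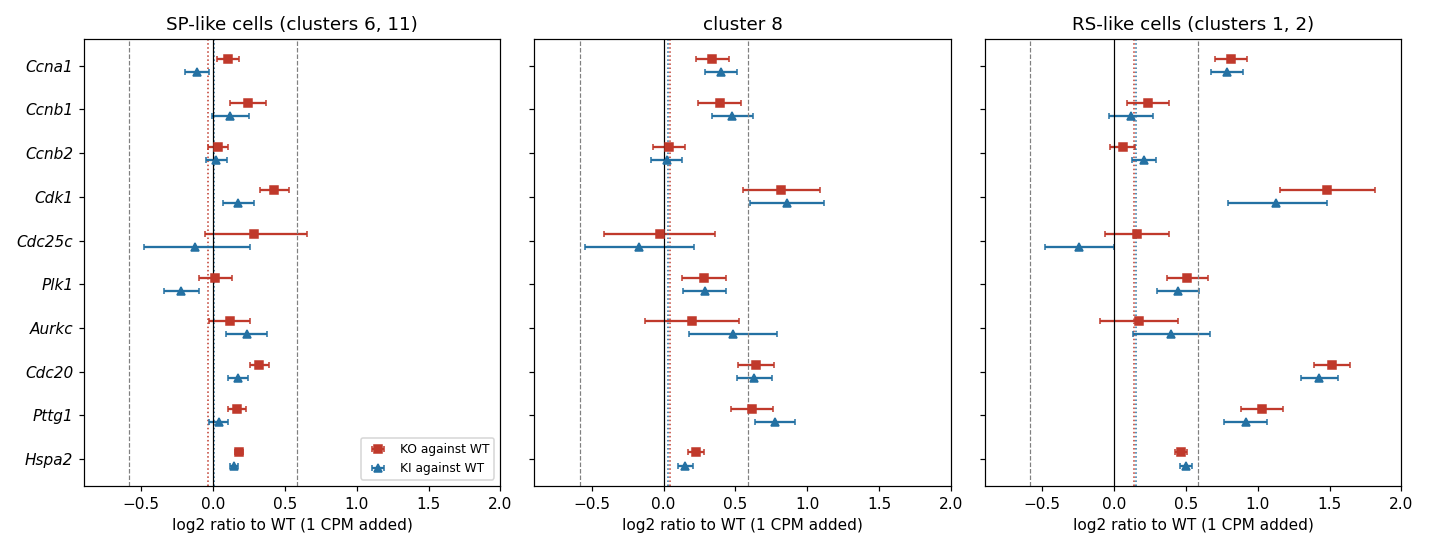
Log2 ratio of each gene against WT (horizontal axis, 1 CPM added) in SP-like cells, cluster 8 and RS-like cells, for KO (squares) and KI (triangles), with 95% counting intervals; dashed lines mark 1.5-fold and dotted lines the median of all genes. In RS-like cells Cdc20, Cdk1, Pttg1 and Ccna1 lie beyond 1.5-fold in both mutants, whereas Ccnb2 in KO is at 0.058 and turns to -0.12 with TMM.

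The 2 RS-like clusters differed in depth. Cluster 2 had median UMIs per cell of 12334 in WT, 13102 in KO and 27973 in KI, and gave the larger part of the UMIs. Its 4 higher genes were the same as in all RS-like cells (12.8% of 7980 genes were higher in KO, 16.3% in KI and 10.1% in both), and none was lower, where 8.86% were in KO and 11.5% in KI. Here too Cdk1, at 8.29 CPM in WT, passed the minimum only through the mutants. Cluster 1 was shallow, with medians of 1262, 1457.5 and 2046 UMIs. In KO, 7 of the 9 genes that passed the minimum there were at least 1.5-fold higher, where 24.5% of 9366 genes were, and none was lower, where 16.7% were. In KI, 3 were higher, where 20% of genes were, and 1 was lower, where 15.7% were. The lower one was Cdc25c, at 32.2 CPM in WT and 15.1 CPM in KI, a log2 ratio of -1.04 (-1.95 to -0.18). Cdk1, at 7.67, 35.5 and 20.5 CPM, was among the higher ones in both and passed the minimum only through the mutants. In cluster 1 Cdc20 was at 25.3 CPM in WT, 112 CPM in KO and 60.4 CPM in KI. Ccna1 there was at 29.9, 93.9 and 46.4 CPM, so that KO stood farther from WT than KI did in the shallow cells. Barcodes taken as empty had the same order of libraries, with Cdc20 at 90.7, 212 and 142 CPM and Ccna1 at 86.3, 170 and 116 CPM. The part of such free RNA in the levels of cluster 1 was not tested.

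For Cdc20, Pttg1 and Ccna1 the shares of cells holding the transcript were also higher in both mutants once every cell was thinned to 5000 UMIs, which left out cells with fewer UMIs. In cluster 2 this kept 644 of 667 WT cells, 428 of 470 KO cells and all 205 KI cells. Cdc20 was detected in 25.9% of WT cells (22.6 to 29.5), 58.6% of KO cells (53.8 to 63.4) and 55.6% of KI cells (48.5 to 62.5), counted as 167, 251 and 114 cells. Pttg1 was detected in 18.0%, 41.1% and 39.0%, and Ccna1 in 35.1%, 55.8% and 52.7%. Before thinning, Cdc20 was detected in 52.8%, 79.6% and 96.1% of cluster 2 cells, in the deeper KI library most often. Cdk1 was found in 29 WT cells (4.50%), 56 KO cells (13.1%) and 17 KI cells (8.29%), the intervals of WT and KI overlapping, so that most RS-like cells of every genotype gave no Cdk1 UMI at this depth.

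For 4 other transcripts the intervals of WT and the mutants overlapped. Ccnb2 was detected in 63.7% of WT cells, 64.3% of KO cells and 69.8% of KI cells. Ccnb1 was detected in 27.6%, 32.7% and 23.9%, Cdc25c in 11.6%, 14% and 10.2%, and Aurkc in 8.85%, 11% and 11.2%. Plk1 was detected in 26.6%, 37.6% and 38.5%, above WT in both mutants. Hspa2 was detected in 96.3%, 97.9% and 99%, so its share was close to its ceiling and could not show a difference in level.

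**Figure D3:**
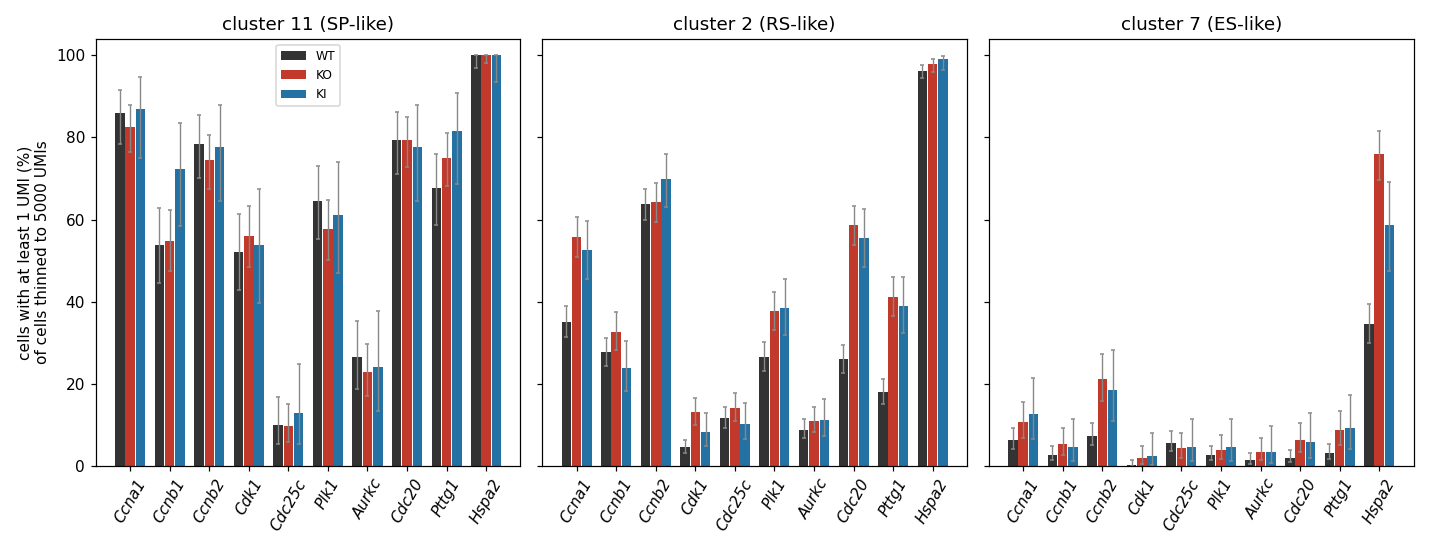
Share of cells with at least 1 UMI of each gene (vertical axis, percent, cells thinned to 5000 UMIs) in clusters 11, 2 and 7 of WT, KO and KI; error bars are 95% Clopper-Pearson intervals. In cluster 2, Ccnb2 bars are level at 63.7% to 69.8% while the Cdc20 bar is 25.9% in WT and 58.6% in KO.

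Counted per cell, the mutant round spermatids of cluster 2 held more of the set. Leaving out the nearly universal Hspa2, 3 or more of the 9 other genes were detected in 260 of 644 WT cells of cluster 2 (40.4%, interval 36.6 to 44.3), 283 of 428 KO cells (66.1%, 61.4 to 70.6) and 128 of 205 KI cells (62.4%, 55.4 to 69.1). None of the 9 was detected in 12.3% of WT cells, 5.37% of KO cells and 2.93% of KI cells. In cluster 11, by comparison, 97.5%, 96.2% and 100% of cells held 3 or more. Over all RS-like cells of at least 5000 UMIs the shares with 3 or more were 38.8%, 64.3% and 53.0%, but this leaves out 670 of 1348 WT cells, 771 of 1228 KO cells and 227 of 478 KI cells. In cluster 1 alone, with 34 WT, 29 KO and 46 KI cells of that depth, the shares were 8.82% (1.86 to 23.7), 37.9% (20.7 to 57.7) and 10.9% (3.62 to 23.6). KI was thus level with WT in cluster 1, and only KO was higher, with overlapping intervals. In cluster 2 of WT and KO, Ccna1 and Cdc20 tended to be found in the same cells. Cdc20 was detected in 37.2% of the WT cells with Ccna1 and 19.9% of those without, in 66.5% and 48.7% in KO and in 57.4% and 53.6% in KI. Cdc20 was therefore more common in mutant cells without Ccna1 than in WT cells with it.

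Little of the set remained in ES-like cluster 7. Cdc20 was at 5.62 CPM in WT, 17.0 CPM in KO and 13.5 CPM in KI, Ccnb2 at 21.3, 49.1 and 45.5 CPM, and Hspa2 at 94.8, 266 and 262 CPM. Only 5 of the 10 genes passed the minimum mean there, all at least 1.5-fold higher in both mutants, in a cluster where 48.4% of 6789 genes were higher in KO, 49.5% in KI and 43.9% in both. None was lower, against 7.87% in KO and 6.88% in KI. Cdc20 and Pttg1 passed the minimum there only through the mutants, so their place in this count followed in part from the filter. The cells of cluster 7 differed by library, with ES markers summing to 214939, 85085 and 80544 CPM and RS markers to 2854, 6297 and 6019 CPM, and without integration most of the late WT cells fell in other clusters than those of the mutants. After thinning, 3 or more of the 9 genes were found in 5 of 405 WT cells, 8 of 208 KO cells and 1 of 87 KI cells, so almost no cell of this cluster held several of them.

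Pseudotime is an ordering of the cells by similarity of their transcriptomes. Along it, Cdc20, Pttg1, Cdk1 and Ccna1 were above WT in both mutants from the fourth to the sixth of 10 bins. Cells of clusters 6, 11, 8, 2 and 7 were placed in 10 bins set to hold equal numbers of WT cells, 194 or 195 each, and the mutants had 38 to 304 cells per bin. In the first bin Cdc20 was already above WT in both mutants, at 165, 211 and 203 CPM, as was Pttg1, at 159, 209 and 182 CPM. Ccna1 was there at 33.5, 45.9 and 31.8 CPM and Cdk1 at 49.6, 55.7 and 54.8 CPM. In the third bin, where the level of Cdc20 was highest in WT, it was 275 CPM in WT, 354 CPM in KO and 351 CPM in KI. In the fourth it was 146, 334 and 356 CPM, and in the sixth 75.0, 229 and 199 CPM. The WT level thus fell by the fourth bin while those of the mutants were still near their third-bin levels. The bins did not hold cells of equal stage: Acrv1, an acrosomal gene of round spermatids, was at 60.2, 37.8 and 11.3 CPM in the third bin and 249, 211 and 147 CPM in the fourth. Tnp1, a transition protein of later spermatids, was at 222, 122 and 41.2 CPM in the fourth. How much of the gap in Cdc20 goes with these was not tested. Pttg1, at 120.0, 218 and 303 CPM in the fourth bin, and Cdk1, at 29.5, 60.5 and 88.0 CPM, were likewise above WT there in both mutants. In the tenth bin Cdc20 was at 4.81, 15.9 and 5.14 CPM, with the interval of KI overlapping that of WT. The interval of Cdk1 in KI overlapped that of WT from the seventh bin on. Ccnb2 stayed near WT for longer in KO, at 319, 331 and 333 CPM in the fourth bin and 92.2, 91.5 and 129 CPM in the eighth, where KI was above WT. In the fifth it was at 283, 319.9 and 339 CPM, with the interval of KO overlapping that of WT and that of KI above it. In the ninth bin both mutants were above it, at 22.3, 68.7 and 65.7 CPM. Ccnb1 was above WT in both mutants in the third bin and the next ones, with 130, 207 and 244 CPM in the fourth and 107, 152 and 172 CPM in the one after it, and was near WT again in the sixth, with 79.5, 89.0 and 84.4 CPM. In the seventh it was at 45.1 CPM in WT, 30.4 CPM in KO, with overlapping intervals, and 42.9 CPM in KI. Cdc25c in KI was under WT in the sixth bin, at 25.4 CPM against 37.5 CPM, with overlapping intervals. When RS-like cells of the mutants were weighted to the pseudotime of those of WT, a setting added after the data were seen, the ratios of Cdc20 were 1.52 in KO and 1.5 in KI and the medians of the 10 genes 0.49 and 0.53. Because cells of like pseudotime still differed in Acrv1 and Tnp1, this weighting need not have made the stages equal. The part of stage in these ratios was not tested.

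**Figure D4:**
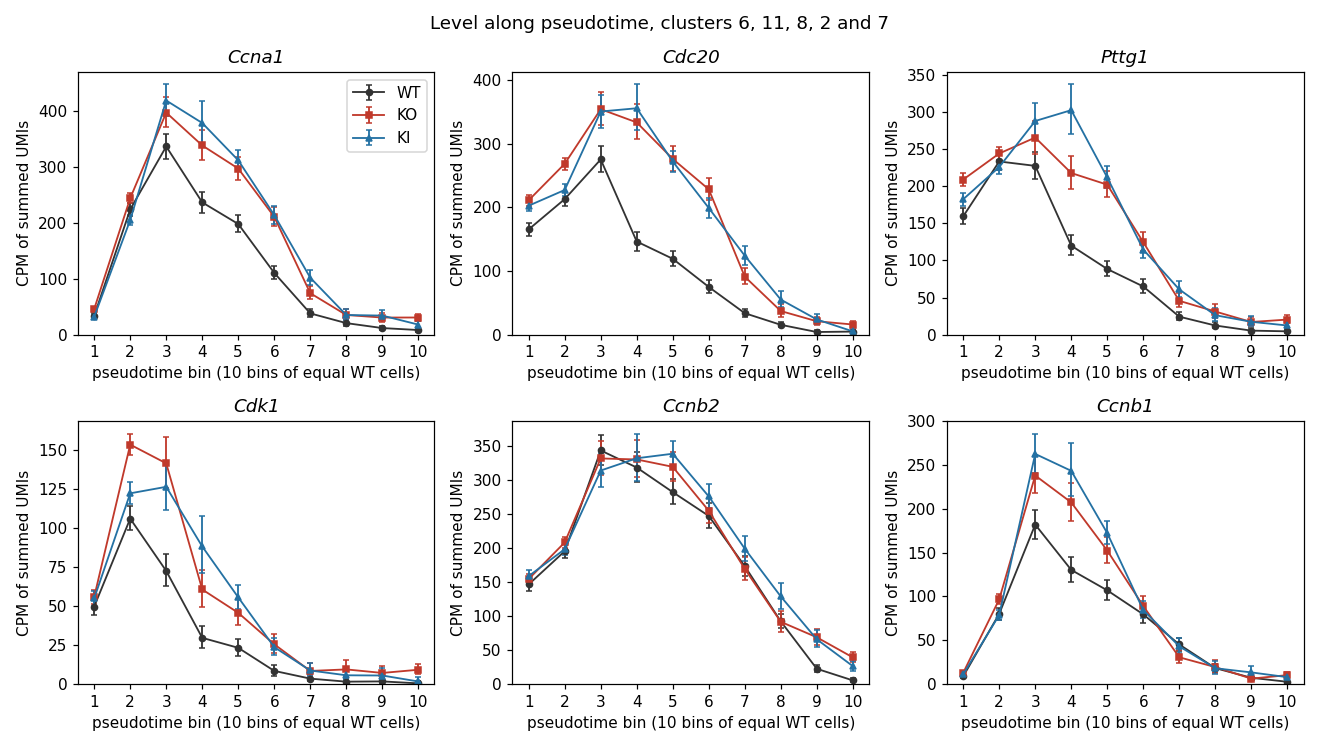
Level (CPM of summed UMIs, vertical axis) of 6 genes in 10 pseudotime bins (horizontal axis) of WT, KO and KI with 95% Poisson intervals. In the fourth bin Cdc20 is at 146 CPM in WT and 334 CPM in KO, whereas Ccnb2 is at 319 CPM and 331 CPM.

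Free RNA in the droplets was measured in the 45001 barcodes ranked 45000 to 90000 by UMIs, which held Cdc20 at 90.7 CPM in WT, 212 CPM in KO and 142 CPM in KI. Piwil1, a spermatocyte gene, bounds how much of it the round spermatids could hold: it was at 9.80 CPM in cluster 2 of WT, 9.75 CPM in KO and 5.13 CPM in KI, against 82.4, 94.8 and 145 CPM in the empty barcodes. Even if every Piwil1 UMI of cluster 2 were free RNA, free RNA would make up at most 11.9%, 10.3% and 3.55% of the UMIs, provided it had the composition of the empty barcodes. Of Cdc20 in cluster 2 this would account for 10.8 of 63.0 CPM in WT, 21.8 of 182 CPM in KO and 5.05 of 172 CPM in KI. The same bound was 18.4% (WT), 14.3% (KO) and 3.95% (KI) of the level of Pttg1, but for Cdk1 it reached 40.8% (WT), 29.9% (KO) and 8.78% (KI). In cluster 7 the bound in KO came to 116% of the Cdc20 level, 102% for Plk1 and 98.2% for Ccnb1, and in WT to 142% for Cdk1 and 84.5% for Cdc20, so these levels cannot be told apart from free RNA.

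Somatic cells gave no clean background. The Sertoli-like cluster also held macrophage markers, 7 genes summing to 366, 819 and 3757 CPM beside 2356, 1486.5 and 2007 CPM for the 8 Sertoli markers, so it was a mixture that differed by library. Sertoli-like cells with at least 5000 UMIs (28 WT, 57 KO and 32 KI cells, median UMIs of all Sertoli-like cells 1498, 1347 and 1673) held Cdc20 in 42.9%, 57.9% and 46.9% and Ccna1 in 67.9%, 42.1% and 37.5%. The WT shares of cluster 2 lay below these for both genes, and in KO the share of Cdc20 in cluster 2 (58.6%) was level with them. This comparison alone therefore cannot show expression in those cells. These Sertoli-like cells also held Piwil1 at 116, 149.7 and 103 CPM, over 10 times its level in cluster 2, so they are no measure of free RNA there. Leydig-like cells, looked at after the data were seen, gave Cdc20 in 0 of 13 WT, 3 of 20 KO and 0 of 20 KI cells and Ccna1 in 0, 0 and 2, where a count of 0 of 13 allows a share of cells with a UMI at this depth of up to 23.1% and 0 of 20 up to 15% (3 cells of the total).

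Marker genes of other stages also differed between the libraries, in both directions. In RS-like cells, 0 of 11 ES markers were above WT in KO and in KI, with summed levels of 14140 CPM in WT, 5585 CPM in KO and 4068 CPM in KI. Of the 11 SP markers, 10 were above WT in KO and 7 in KI, and their sums were 8324, 9082 and 9064 CPM. Of 10 early SP markers, 8 and 7 were above WT, with sums of 268, 426 and 402 CPM. The median log2 ratio was 0.43 in KO and 0.15 in KI for SP markers, and 0.60 and 0.43 for early SP markers. Over all 8319 genes counted it was 0.14 and 0.15, so the SP markers in KI were level with all genes. The 12 RS markers summed to 6175, 6259 and 5755 CPM. None of the markers in these 4 lists was at 0 in either mutant. Sertoli markers, 8 genes, summed to 8.54, 20.5 and 13.5 CPM, with 8 above WT in KO and 4 in KI. The 7 stromal and myoid markers summed to 1.84, 8.25 and 2.30 CPM and the 3 endothelial markers to 4.71, 14.1 and 12.8 CPM. The part of these markers in the levels of the division genes was not tested.

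The wider division machinery, a list of 70 genes that left out the 10, moved in both directions in RS-like cells. Of the 42 that passed the minimum mean, 13 were at least 1.5-fold higher and 3 lower in KO, and 11 higher and 5 lower in KI, with medians of 0.33 and 0.36. Over all genes counted, 13.4% were higher and 8.13% lower in KO, and 16% and 10.8% in KI. In both mutants 9 of the 42 were higher (21.4%, against 10.5% of all genes) and 3 lower (7.14%, against 6.84%), and with TMM these counts were 5 (11.9%, against 5.77% of all genes) and 4 (9.52%, against 10.9%). Higher with either scaling were Bub3, a checkpoint protein that restrains Cdc20, at 17.1, 43.8 and 42.4 CPM, and Ube2c, the ubiquitin-conjugating enzyme of the anaphase-promoting complex, at 57.3, 128 and 131 CPM. So were Incenp, the scaffold of the Aurora B and C complex, at 17.2, 35.9 and 34.3 CPM, Sgo2a, the protector of centromeric cohesion, at 9.66, 26.8 and 19.1 CPM, and Tpx2, an activator of Aurora A, at 10.8, 25.2 and 19.7 CPM. Higher only with totals were Anapc2, the cullin of the complex, Mybl1, the transcription factor of pachytene genes, and the Cdk1 inhibitory kinases Pkmyt1 and Wee1, the last of which fell outside the naming rule and was named after its value was seen. Anapc2, Sgo2a and Mybl1 were under 10 CPM in WT and passed the minimum through the mutants.

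The 3 lower in both mutants were 2 subunits of the anaphase-promoting complex and an inhibitor of the phosphatase PP2A. Cdc16 was at 77.3 CPM in WT, 34.2 CPM in KO and 33.2 CPM in KI, a log2 ratio of -1.15 and -1.19. Anapc11, the RING subunit, was at 122, 67.8 and 67.9 CPM. Arpp19 was at 70.2, 42.3 and 31.0 CPM. The share of the list that was lower was near that of all genes, so nothing particular to the complex is read from it. In SP-like cells 1 of the 56 listed genes that passed the minimum was higher and none lower in either mutant. Of all genes there, 0.493% were higher and 1.34% lower in KO, and 0.753% and 1.88% in KI.

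Over 42 points (clusters with at least 20 cells, in each library), the genes whose log2 levels ran most like a member's, among 10578 genes, were taken from Pearson's r. They were Ccdc96 (0.95), Pdzd9 (0.94) and Hdgfl1 (0.94) for Ccna1, Fam216a (0.97), Pde6d (0.96) and Psip1 (0.95) for Cdc20, and Eps8l3 (0.94), 6430531B16Rik (0.92) and Hyal6 (0.92) for Aurkc. Among the 10 genes themselves, r was highest for Ccnb2 with Hspa2 (0.95) and Cdc20 with Cdk1 (0.93) and lowest for Pttg1 with Cdc25c (0.092). The points share libraries, depth and cluster borders, so these values describe likeness only.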

How the data were processed

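The authors aligned reads to mm10 and deposited raw UMI counts per gene and barcode, with neither cells called nor values normalized. The labels name Cell Ranger 2.1.1 and the file headers Cell Ranger 4. Cells were called here by UMI total (3000 expected cells) and by comparison with barcodes ranked 45000 to 90000 (at least 500 UMIs, up to 20000 barcodes, 10000 simulated barcodes per total, false discovery rate 0.01), then filtered to over 500 genes and under 10% mitochondrial UMIs, as in the study. Libraries were integrated with Seurat 5.3.0 and sctransform 0.4.2 in R 4.3.3 (2000 variable genes without the members and pathway list, 100 principal components) and clustered with scanpy 1.11.5 and leidenalg 0.10.2 (15 neighbours, resolution 0.3). Clusters were named from marker z scores (3 markers above the other cells, a lead of 0.1). The minimum score of 0.5 was set after the clusters were seen and left clusters 4, 8, 9 and 14 unnamed, with clusters 4, 8 and 9 counted as alternatives. Doublets were kept, with removal by Scrublet score at 0.8% per 1000 called cells as an alternative.

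UMIs were summed per class and library and scaled to CPM, and log2 ratios had 1 CPM added. Genes with a mean of at least 10 CPM over the libraries were counted at 1.5-fold. Intervals are exact Poisson, exact conditional binomial (ratios) or Clopper-Pearson. Size factors of edgeR 4.0.16 (TMM) were an alternative, as were other cell filters, scalings, thinning depths and class borders. The named genes were the 10 members, listed pathway genes past 1.5-fold in the same direction in both mutants (at most 8 in each direction) and the 3 most alike genes of Ccna1, Cdc20 and Aurkc. The members and lists were chosen with earlier results of these data known. Weighting to pseudotime, other uses of clusters 4, 8 and 9, removal of shared barcodes and the Leydig-like background were added after the data were seen. Tested on simulated data, the summed comparison recovered 200 of 200 changed genes among 3764 for KO and for KI. These 3764 were fewer than the 8319 genes counted in RS-like cells, so the recovery does not speak for every gene counted. It also says nothing of variation between libraries, which 1 library per genotype cannot show. Positions are GENCODE M21 on GRCm38.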

Additional observations from a re-analysis of the deposited data

Results flagged for a closer look

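In SP-like cells the log2 ratio of Ccna1 against WT had opposite signs in the mutants, 0.10 in KO and -0.11 in KI. In KI, the ratio of Ccna1 was 0.79 in RS-like cells and -0.11 in SP-like cells. That of Plk1 in KI was 0.45 in RS-like cells and -0.22 in SP-like cells. Each of these pairs was singled out because the 2 ratios point in opposite directions, and with 1 library per genotype none of the differences was tested. None of the SP-like values had its sign in both clusters that make up the class. Ccna1 was at 0.056 in KO and 0.024 in KI in cluster 6, and at -0.086 and 0.13 in cluster 11. Plk1 in KI was at 0.14 in cluster 6 and -0.070 (interval -0.23 to 0.089) in cluster 11. The pooled KI values lie below those of both clusters, and cluster 11, where both genes are higher, gave 3437447 of 13441022 UMIs in WT but 3831696 of 20754339 in KI.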

How the results depend on the processing

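No paired analysis was possible because each genotype had 1 library, and for the same reason no library could be left out. Over 14 alternatives for RS-like cells and 12 for SP-like cells, no count of members past 1.5-fold moved beyond 1.5 times: 3 to 5 were higher in RS-like cells of KO and of KI, none was lower, and none passed it in SP-like cells. The median ratio in RS-like cells, 0.49 in KO and 0.47 in KI, was 0.31 and 0.32 with TMM, which shifts all genes alike, 0.74 in KI at resolution 0.8, and 0.40 in KO with clusters 4 and 8 counted as RS-like. Ccnb1 in RS-like cells of KO turned from 0.24 to -0.14 at resolution 0.8, Ccna1 in SP-like cells of KO from 0.10 to -0.040 when each cell was scaled to its own total, and Ccna1 in SP-like cells of KI from -0.11 to 0.0055 with clusters 4, 8 and 9 counted as SP-like. The cause was not tested.

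The mean number of the 10 genes detected per RS-like cell stood at 3.11 for WT, 4.19 for KO and 3.69 for KI. By construction it was lower when cells were thinned to 2000 UMIs (1.65, 2.21 and 1.91) or 2 UMIs were asked for (1.45, 2.08 and 1.78), and higher when thinned to 10000 UMIs (4.57, 5.70 and 5.52). It was 2.17, 2.84 and 2.74 at resolution 0.8, 3.81, 4.8 and 4.52 with clusters 4 and 8 added, 2.86 in WT and 3.86 in KO without integration, 4.03 in KI with cells called by UMI total alone and 4.08 in KI with cluster 1 left out. Both mutants stayed above WT in each of these settings where all 3 values are given. Depth limits Cdk1, Aurkc and Cdc25c most: with 5000 UMIs per cell they were found in few round spermatids, so their absence from a cell is not shown.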
